A study of Drosophila melanogaster with 9 samples.

Results

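The genes described here were those with their lowest RNA level at the intermediate level of Chinmo, in larval ventral nerve cords (VNCs) that carry *prospero* RNAi tumors. They were selected on the deposited values themselves. A gene was kept if its mean in each of the conditions PCC and PC was at least 50 normalized counts, if (P + 1)/(PCC + 1) and (P + 1)/(PC + 1) of the condition means were both at most 0.77, and if its highest P library lay below the lowest of the other 6 libraries. Of the 15340 genes of the table, 8248 reached the minimum mean, 195 of these met both ratios and 116 also showed no overlap with P. Because P against the other conditions chose them, these differences are described below without a test.

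RNA was measured in VNCs of late third-instar larvae in 3 genotypes, with 3 replicates of pooled brains each, named A, B and C. All 3 carried *nab-GAL4*, *UAS-dicer2* and *UAS-prosperoRNAi*. PCC, the *nab>prosRNAi, chinmo* genotype, added *UAS-chinmoFL*, PC, the *nab>prosRNAi, chinmoRNAi* genotype, added *UAS-chinmoRNAi*, and P, the *nab>prosRNAi* genotype, had no further transgene. Larvae were kept for 7 days at 18°C and dissected 3 days after a shift to 29°C, with 51 to 82 brains per replicate for PCC, 58 to 78 for PC and 57 to 79 for P. The driver *nab-GAL4* is a GAL4 trap in *nab* that is active in all neuroblasts of the VNC and central brain, so the constructs act in the neuroblast lineages while the RNA comes from the whole VNC. Since PCC and PC each carried 1 transgene more than P, an effect of an added transgene or of its genetic background cannot be told apart from an effect of the Chinmo level. In these bulk samples, fewer cells of a type and less RNA per cell cannot be told apart either.

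Chinmo is a BTB zinc finger protein that marks early-born neurons and young neuroblasts in the larval nervous system and is normally silenced as neuroblasts age. Loss of the differentiation factor Prospero lets ganglion mother cells revert to neuroblast-like cells. Some of the genes below encode heat shock proteins, which refold damaged proteins, glutathione transferases, which detoxify reactive compounds, or secreted factors of innate immunity.

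Reads on genes numbered 34712815 to 40518948 per library in PCC, 30677075 to 39335800 in PC and 35575053 to 43415151 in P. *chinmo* itself was at 71836, 89792 and 81295 normalized counts in PCC, 5427, 6330 and 4518 in PC and 8190, 8533 and 8819 in P, so P lay between the others. The counts do not separate the *UAS-chinmo* transgene from the endogenous gene. *pros*, the RNAi target that all genotypes share, was at 8607 to 10751 normalized counts in PCC, 31510 to 42387 in PC and 15859 to 19997 in P. Neuroblast markers were abundant in every library, with a summed level of 14 genes of 149687 to 168571 normalized counts in PCC, 85486 to 109597 in PC and 166773 to 187123 in P, and 0 of these genes was at 0 in all libraries. The summed level of 15 neuron markers was 42150 to 70861 in PCC, 115767 to 161343 in PC and 79567 to 104279 in P. Neither list held a member, and neither was lowest in P. The marker lists for glia, muscle, fat body, salivary gland, trachea and epidermis, and male dosage compensation held 0 members, and that for gut and Malpighian tubule held 1, *CG8620*, named after its values were seen.

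The 116 genes were 1.41% of the 8248 genes with sufficient means, and the rule fixes this share. The same rule with P highest in place of lowest found 85 genes. At any ratio, P lay below all other libraries for 287 genes (3.48%) and above them for 376 (4.56%). The median fold of the members was 1.76 for PCC over P and 1.75 for PC over P, on the scale of (mean + 1). In 27 members both folds were at least 2, and in 38 the larger of the ratios of P to the other conditions was above 0.7. The lowest of the other 6 libraries exceeded the highest P library by a median of 1.25 times, and by less than 1.1 times in 20 members. The set therefore holds genes far below the other conditions as well as genes close to the limit.

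**Figure D1:**
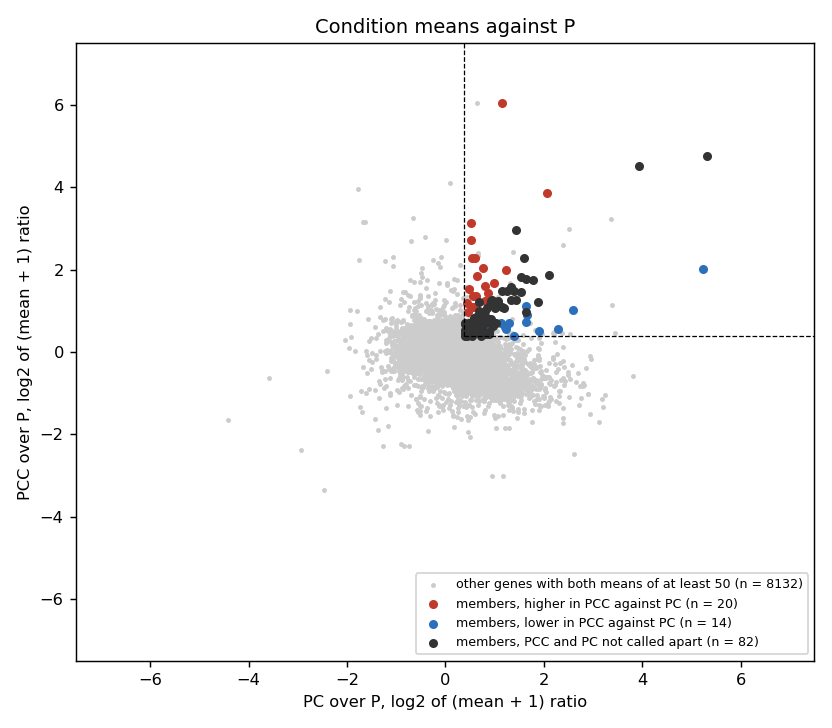
Condition means of PCC over P (vertical axis) and PC over P (horizontal axis), as log2 of the ratio of (mean + 1), for the 8248 genes with PCC and PC means of at least 50. Dashed lines mark the ratio limit of 0.77. The 116 members are coloured by their PCC over PC call (20 higher, 14 lower and 82 not called), and grey points inside the limits are genes whose libraries overlapped with P.

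Across libraries the members moved together by construction. Their median log2 difference from the P mean was 0.89, 0.79 and 0.79 in PCC replicates A, B and C and 0.74, 0.77 and 0.78 in PC, against -0.01, -0.02 and 0.05 in P. Over all 8248 genes the same medians lay between -0.04 and 0.01. Just inside the ratio limit were *Tom7*, a subunit of the mitochondrial import channel, at 0.769, *CG7059* at 0.769 and *Hsromega* at 0.766. Just outside it were *Trf4-2* at 0.774, *Gadd45* at 0.775 and *nonA-l* at 0.778, which met every other part of the rule. The members were mostly protein-coding genes (114 of 116), and 58 were named only by a CG number in the table.

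The functional list with the most members was that for heat shock and stress RNA. Of its 28 genes, 20 reached the minimum mean and 6 were members, and P was below all other libraries in 8 at any ratio. Both *Hsp27* and *Hsromega* missed the rule, which left 4, after scaling to the same total and without P replicate C. The list had a median log2 change of 0.39 for PCC over P and of 0.60 for PC over P. Over all genes with sufficient means these medians were -0.01 and -0.01. The list medians include the 6 members, which the rule chose as low in P, so no shift of the list is read from them. Of all genes with sufficient means, 1.41% were members, and P was below all other libraries in 3.48% at any ratio. The lists were written with earlier results of these data known, so no excess of members is read from this list or those below. *Hsp70Ba*, an inducible Hsp70 chaperone, was at 259, 60.9 and 219 normalized counts in PCC, 205, 427 and 153 in PC and 1.86, 4.19 and 10.8 in P. The P libraries held 2, 4 and 13 reads of it, and the folds of 27.2 for PCC over P and 39.7 for PC over P rest on these 19 reads. *Hsp70Ba* is one of several nearly identical copies, of which *Hsp70Aa*, *Hsp70Ab*, *Hsp70Bb* and *Hsp70Bbb* were listed at 0 in all 9 libraries, so its own share of the reads is uncertain.

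*Hsp68*, a second inducible member of the Hsp70 family, was at 10337, 2289 and 7275 normalized counts in PCC, 5011, 11439 and 3745 in PC and 1913, 1889 and 2071 in P. Replicates within PCC and within PC differed more than PCC and PC differed from each other, and PCC replicate B was only just above P. The small heat shock gene *Hsp26* was at 26657, 14696 and 29840 in PCC, 19786, 24307 and 21163 in PC and 11339, 9230 and 10502 in P, and PCC replicate B again lay nearest to P. *DnaJ-1*, an Hsp40 co-chaperone, was at 8282, 6057 and 8748 in PCC, 6511, 9429 and 6145 in PC and 5399, 5260 and 4546 in P. In *Hsp70Ba*, *Hsp68*, *Hsp26* and *DnaJ-1* alike, PCC replicate B was the lowest PCC library and PC replicate B the highest PC library.

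That order of replicates was shared by 9 of the 20 heat shock genes with sufficient means (45.0%), against 989 of the 8248 genes and 13 of the 116 members (11.2%). These shares are a description, since genes of 1 response are not independent. The order was read from *Hsp70Ba*, *Hsp68*, *Hsp26* and *DnaJ-1*, which are among the 9, so no excess in the list is read from its share. The other genes with this order were *Hsp70Bc*, the co-chaperone *stv*, *Hsc70-4*, *Hsf* and *Hsp67Ba*. In *Hsf*, PCC replicates A and B were nearly equal, at 3756 and 3743 normalized counts. *Hsp70Bc* was at 730, 132 and 582 normalized counts in PCC, 265, 700 and 251 in PC and 160, 162 and 147 in P, and it missed the rule through PCC replicate B alone. VNCs were dissected in rounds, but the labels do not say which replicate came from which round, and the part of handling in the heat shock levels was not tested.

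**Figure D2:**
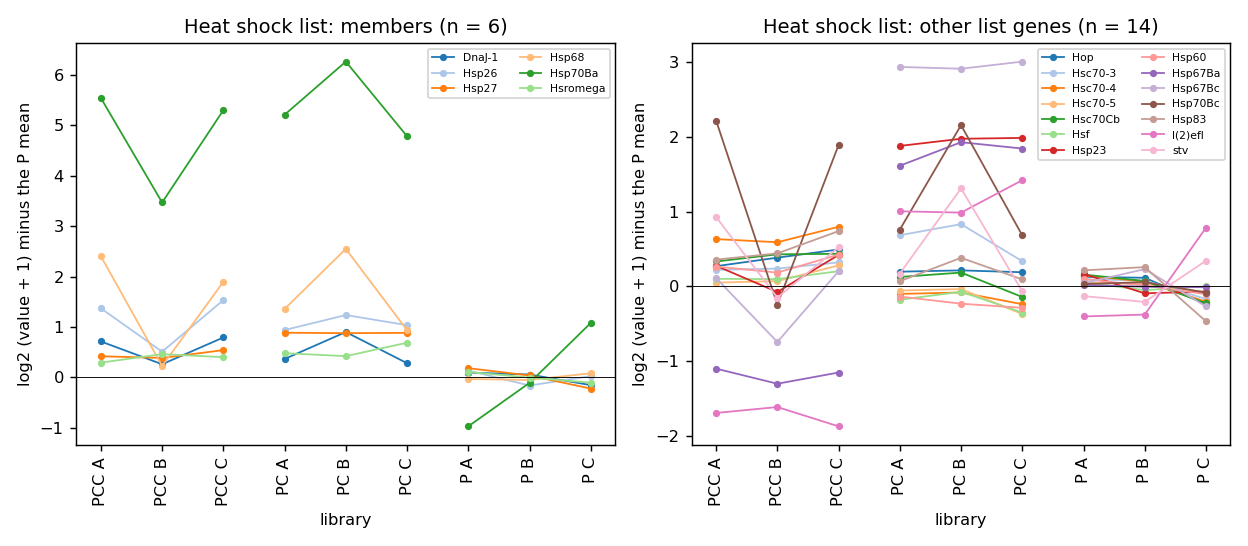
Genes of the heat shock list by library, as log2(normalized count + 1) minus the mean of the P libraries (vertical axis), for the 6 members (left panel) and the 14 other genes with PCC and PC means of at least 50 (right panel). Lines join the replicates of a condition only to make a gene traceable. *Hsp70Ba* and *Hsp68* dip in PCC replicate B and peak in PC replicate B, whereas *Hsp27* stays between 0.39 and 0.54 in PCC and between 0.88 and 0.89 in PC.

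*Hsp27* did not share the replicate order of *Hsp70Ba*, *Hsp68*, *Hsp26* and *DnaJ-1*. It was at 45009, 43962 and 48961 normalized counts in PCC, 62190, 61791 and 62064 in PC and 38193, 34573 and 28861 in P, with a narrow spread in PC. The stress-induced long noncoding RNA *Hsromega* was at 6926, 7780 and 7465 in PCC, 7886, 7568 and 9106 in PC and 6087, 5642 and 5258 in P. *Hsp23*, a small heat shock gene that was no member, was at 33798, 26504 and 37387 in PCC, 102770, 109826 and 110704 in PC and 31362, 26176 and 26605 in P, so its PCC and P libraries overlapped. The constitutive chaperone *Hsc70-4* was at 288860 to 333381 in PCC, 162581 to 181209 in PC and 166264 to 212321 in P, so its PC and P libraries overlapped below PCC.

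Of 34 genes with sufficient means in the list for thioester proteins and humoral immunity, 4 were members, against 1.41% of all such genes. The antifungal peptide gene *Drs* was at 205, 46.5 and 654 normalized counts in PCC, 238, 21.8 and 346 in PC and 8.35, 12.6 and 15.8 in P. Its level varied widely within PCC and within PC, and PC replicate B was only 1.38 times the highest P library. *PGRP-LA*, of the peptidoglycan recognition family, was far steadier, with 295, 291 and 287 in PCC, 296, 257 and 269 in PC and 106, 95.3 and 109 in P. *Tep2*, a thioester protein related to complement, was at 6407, 6051 and 7721 in PCC, 4676, 4946 and 4100 in PC and 2728, 2428 and 2356 in P. *Sp7*, a serine protease of the melanization cascade, was at 733, 695 and 774 in PCC, 1074, 1099 and 1160 in PC and 465, 495 and 474 in P. *Tep2* was thus highest in PCC and *Sp7* in PC, with no overlap between any of the conditions.

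The prophenoloxidase gene *proPO59*, now named *PPO3* and the only member among the blood cell markers, was at 190, 165 and 230 in PCC, 106, 119 and 120 in PC and 47.3, 47.1 and 50.7 in P. The 17 blood cell markers summed to 16895 to 32294 normalized counts in PCC, 31790 to 51938 in PC and 20479 to 35858 in P. The 15 fat body markers summed to 30155 to 142301 in PCC, 199225 to 529285 in PC and 72656 to 236650 in P. In both lists 0 genes were at 0 in every library, and neither sum was lowest in P. The part of these cells in the levels of the immune genes was not tested.

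Several of the genes with the lowest P level are known from signalling and pigmentation. *E23*, an ABC transporter gene tied to the ecdysone response, was at 3254, 4149 and 2567 normalized counts in PCC, 1017, 1096 and 740 in PC and 183, 248 and 245 in P. The order PCC over PC over P held without overlap. It was the only member among 15 genes of the ecdysone response with sufficient means, whose median log2 change was -0.32 for PCC over P and 0.78 for PC over P. *e*, which encodes the enzyme that couples beta-alanine to dopamine, was at 1551, 1678 and 1634 in PCC, 2176, 2117 and 1378 in PC and 461, 486 and 378 in P. PCC and PC overlapped in *e*, and both were at least 2.84 times P in every library.

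The pigmentation gene *y* was at 302, 92.9 and 65.9 normalized counts in PCC, 65.1, 42.4 and 50.6 in PC and 15.8, 14.7 and 25.8 in P. PCC replicate A alone was above 100. The chinmo RNAi line is a TRiP line, and such lines are known to carry *y* and *v* as transgene markers, and *v* was at 93.1, 7.74 and 33.5 in PCC, 304, 328 and 341 in PC and 35.3, 86.9 and 92.3 in P. The part of marker transgenes in the level of *y* was not tested. Of the other genes linked to the transgenes, *Dcr-2* was at 149980 to 184179 in PCC, 21190 to 27234 in PC and 73432 to 97186 in P, *nab* at 19520 to 23569 in PCC, 10181 to 13334 in PC and 17999 to 19775 in P, *w* at 37973 to 59510 in PCC, 21495 to 28832 in PC and 33358 to 41482 in P, and *tio* at 1957 to 2281 in PCC, 2470 to 3519 in PC and 1896 to 2203 in P. None of these was lowest in P in all libraries.

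**Figure D3:**
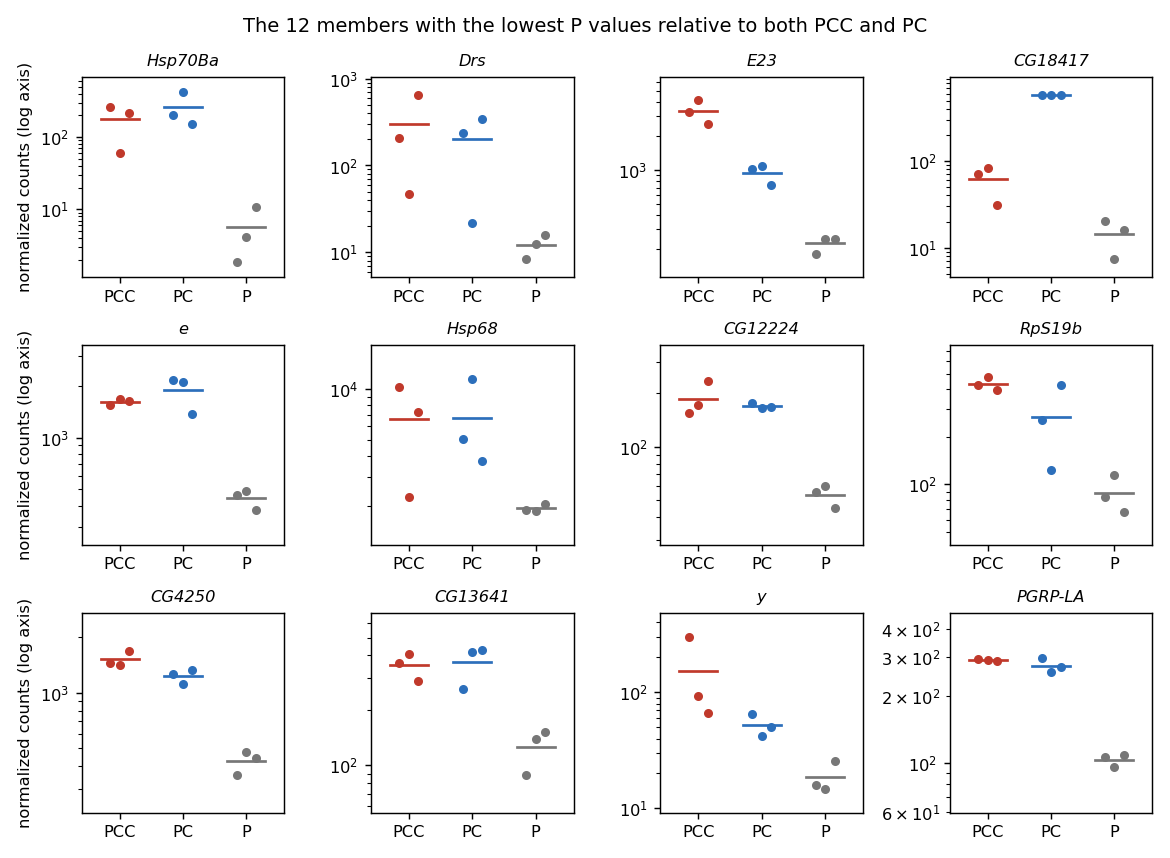
Normalized counts per library (points, log axis) and condition mean (bar) of the 12 members with the lowest P level relative to both other conditions, with PCC, PC and P from left to right in each panel. P lies below all other libraries in every panel because the rule demands it. *Hsp70Ba*, *Drs* and *Hsp68* vary widely within both PCC and PC, whereas *PGRP-LA* is tight.

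The remaining genes among the 12 lowest were little studied or had paralogs. *CG18417* was at 71.3, 84.1 and 31.2 normalized counts in PCC, 586, 587 and 587 in PC and 20.4, 7.33 and 15.8 in P, so its level in PC stood far above both other conditions. The P libraries held 22, 7 and 19 reads of *CG18417*. *RpS19b*, a paralog of the ribosomal protein gene *RpS19a*, was at 424, 475 and 395 in PCC, 255, 124 and 424 in PC and 83.5, 114 and 66.5 in P. PC replicate B of *RpS19b* lay close to P, and *RpS19a* was at 52467 to 61660 in PCC, 39178 to 64363 in PC and 52729 to 54282 in P. *CG12224* was at 155, 170 and 233 in PCC, 176, 164 and 167 in PC and 55.7, 59.7 and 44.9 in P, and *CG4250* at 1450, 1411 and 1691 in PCC, 1264, 1116 and 1324 in PC and 359, 478 and 445 in P. *CG13641* was at 361, 404 and 290 in PCC, 261, 416 and 426 in PC and 88.1, 140 and 152 in P. In *CG12224*, *CG4250* and *CG13641*, every PCC and PC library was at least 1.72 times the highest P library.

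Some members were close neighbours in the genome. In the gene order of RefSeq for Release 6 of the fly genome, *CG18547* and *CG12224* were adjacent and *CG10005* lay 1 gene away from *CG18547*. *mthl10* and *mth* were adjacent as well, and 3 genes lay between *Hsp26* and *Hsp27*. These 4 pairs involved 7 members. Neighbours did not share 1 shape: *CG10005* was at 2767, 2804 and 3577 normalized counts in PCC, 80.9, 125 and 99.3 in PC and 48.2, 49.2 and 37.4 in P, whereas *CG18547* was at 441, 330 and 376 in PCC, 303, 401 and 307 in PC and 159, 154 and 169 in P. In the Ensembl annotation, 47 members overlapped a gene on the other strand and 6 a gene on the same strand. Reads were counted by strand, so mainly the 6 are uncertain, among them *CG1628* and *CG42666*.

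Detoxification and metabolism were represented by few genes of each list. *GstD1*, a glutathione transferase of the delta class, was at 15708, 16030 and 12309 normalized counts in PCC, 7430, 8089 and 9791 in PC and 5917, 5154 and 6068 in P. *GstS1*, of the sigma class, was at 5410, 5835 and 4626 in PCC, 4755, 5118 and 5009 in PC and 3936, 3238 and 4024 in P. They were the only members among 23 glutathione transferases with sufficient means. The median log2 change of these 23, members included, was 0.33 for PCC over P and 0.35 for PC over P. Each of the lists for metal handling, sulphur amino acids, cytochrome P450 enzymes and UDP-glycosyltransferases held 1 member, and the redox defence list held 0 of 19. The copper chaperone gene *Atox1* had folds of 1.56 for PCC over P and 1.95 for PC over P, *Cbs*, of the transsulfuration pathway, 1.78 and 1.51, *Cyp6a13* 1.40 and 1.85, and *Dot*, now named *Ugt36A1*, 1.99 and 1.75.

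Of 8 receptors of the methuselah family with sufficient means, 3 were members, against 1.41% of all genes with sufficient means. Of these 3, *mth* and *mthl10* are adjacent genes. *mth*, which is known for its effect on life span and stress resistance, was at 1815, 2116 and 1961 normalized counts in PCC, 2181, 2084 and 2168 in PC and 1367, 1258 and 1223 in P. *mthl10* was at 1459, 1538 and 1408 in PCC, 2014, 1747 and 1797 in PC and 953, 953 and 1073 in P. *mthl4* was at 311, 349 and 288 in PCC, 334, 356 and 333 in PC and 179, 219 and 279 in P, with P replicate C only just below PCC replicate C. *mthl3* had the same direction, with folds of 1.46 and 1.82, but P replicate C, at 668, was above PCC replicate C, at 635.

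Genes of adhesion, the cytoskeleton and signalling appeared singly. *scb*, an integrin alpha subunit, was at 2020, 2111 and 2256 normalized counts in PCC, 3617, 3518 and 3008 in PC and 1575, 1421 and 1335 in P. *blow*, which acts in myoblast fusion, had almost equal levels in both other conditions, with 2171, 2129 and 1956 in PCC, 2062, 2332 and 1962 in PC and 1188, 1118 and 1233 in P. The GTPase gene *Rac2* had folds of 1.62 for PCC over P and 2.05 for PC over P, *Rab26* 1.54 and 1.96, *disp*, which releases Hedgehog, 1.38 and 1.55, and the chitinase gene *Cht2* 1.45 and 1.42. *Rab26*, *disp* and *Cht2* were each the only member of their list, of 29 Rab genes, 17 Hedgehog pathway genes and 16 chitin and cuticle genes with sufficient means.

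The members with the highest P means, in normalized counts that are not divided by transcript length, were *Hsp27*, *eff*, *Hsp26*, *GstD1* and *skap*. *eff*, a ubiquitin-conjugating enzyme, was at 19441, 22273 and 20481 in PCC, 19578, 19320 and 25194 in PC and 16126, 15705 and 15210 in P. *skap*, a subunit of the mitochondrial succinyl-CoA synthetase, was at 7893, 8812 and 7086 in PCC, 7468, 7571 and 7629 in PC and 5749, 5519 and 5906 in P. Both were among the small differences, with folds of 1.32 to 1.39. Over the set, the median P mean was 413 normalized counts, against 1594 over all genes with sufficient means. The rule keeps P low in the members, so nothing particular to them is read from this difference. The median coefficient of variation of the members was 10.8% in PCC, 13.8% in PC and 9.93% in P. Over all genes with sufficient means it was 7.46%, 13.7% and 6.99% in the same conditions. The rule allows no overlap with P and so acts on this spread as well, and nothing particular to the members is read from it.

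The rule did not use the difference between PCC and PC, which asks whether the members stood at the same level at the highest and the lowest Chinmo level. It was tested with limma on log2(normalized count + 1) in the 6 PCC and PC libraries, over 11586 genes whose values sum to at least 15, and a gene was called at a Benjamini-Hochberg adjusted p under 0.05. Of the 116 members, 20 (17.2%) were higher in PCC than in PC, 14 (12.1%) were lower and 82 were not called. Over all genes tested, 19.9% were called higher and 22.7% lower. Over the 8248 genes with sufficient means, 25.8% were called higher and 24.6% lower. The rule set a lower limit relative to P on both PCC and PC, so nothing particular to the members is read from these shares. Their median log2 change was 0.04, against -0.03 over all genes tested. Of the 82 members not called, 72 had a 95% interval within a log2 change of 1 in either direction. A missing call does not show equal levels.

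The split of the calls depended on the scaling, with 15 members higher and 16 lower after scaling to the same total and 38 higher and 11 lower after quantile normalization, in which the median over all genes was -0.15 and 0.11. Of the 34 called members, 25 (15 higher and 10 lower) were called in the same direction under all 19 alternatives tried, and 0 were called in the opposite direction under any of them.

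**Figure D4:**
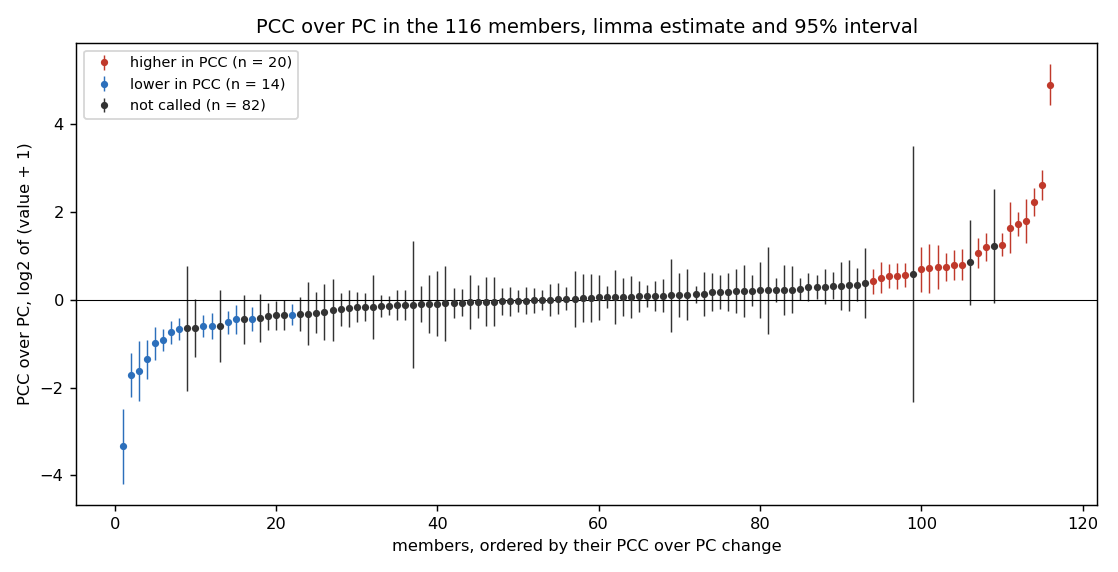
PCC over PC log2 change of the 116 members with 95% intervals from limma (vertical axis), ordered from lowest to highest (horizontal axis). Red points are the 20 members higher in PCC, blue points the 14 lower in PCC and black points the 82 not called. The wide intervals belong to genes such as *Drs*, *Hsp68* and *Hsp70Ba*, whose replicates varied widely.

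Members higher in PCC than in PC were led by *CG10005*, whose log2 change was 4.90 (standard error 0.20, adjusted p = 4.99e-05, limma). *Sox102F*, a Sox transcription factor gene, was at 1482, 1685 and 1779 normalized counts in PCC, 252, 307 and 244 in PC and 147, 231 and 184 in P, with a log2 change of PCC over PC of 2.62 (standard error 0.14, adjusted p = 8.94e-05, limma). *AGO3*, an Argonaute protein of the piRNA pathway, was at 1882, 2025 and 1984 in PCC, 405, 367 and 494 in PC and 322, 305 and 260 in P, with a change of 2.23 (standard error 0.14, adjusted p = 0.000107, limma). In both, PC was close to P, and the difference of PC from P was the smaller of the pair that the rule requires. *E23* changed by 1.80 (standard error 0.21, adjusted p = 0.000804, limma) and *CG1628* by 1.73 (standard error 0.12, adjusted p = 0.000159, limma). *GstD1* rose by 0.80 and *Tep2* by 0.55 in PCC (adjusted p = 0.00477 and 0.0106, limma). The EGF receptor ligand gene *vn*, chosen after its values were seen, rose by 1.07 (adjusted p = 0.0012, limma).

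Members lower in PCC than in PC were led by *CG18417*, with a log2 change of -3.33 (standard error 0.36, adjusted p = 0.000594, limma). *CG42666*, now named *prage*, was at 532, 457 and 543 normalized counts in PCC, 1999, 1947 and 1195 in PC and 274, 405 and 368 in P, with a change of -1.71 (standard error 0.21, adjusted p = 0.000929, limma). *CG9005*, now named *atos*, was at 2199, 2378 and 2322 in PCC, 7260, 6543 and 4283 in PC and 1545, 1642 and 1648 in P, with a change of -1.36 (standard error 0.19, adjusted p = 0.00154, limma). *CG15046* changed by -1.61 (adjusted p = 0.00405, limma), but it was not called after quantile normalization (-0.92, adjusted p = 0.0533), with adjusted p of 1.77e-05 to 0.0533 over all alternatives. *Syx13*, a syntaxin of endosomes, changed by -0.99, *scb* by -0.66 and *Sp7* by -0.60 (adjusted p = 0.00267, 0.00251 and 0.00374, limma). *CAH2*, a carbonic anhydrase gene chosen after its values were seen, changed by -0.51 (adjusted p = 0.00934, limma).

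Among the heat shock members, only *Hsp27* was called, with a log2 change of -0.43 (adjusted p = 0.019, limma). The call was lost without PCC replicate A or B or PC replicate A or B (-0.40 to -0.44, adjusted p = 0.0541 to 0.0898) and with edgeR (-0.32, adjusted p = 0.063). Over all alternatives its adjusted p was 4.87e-07 to 0.0898. The change of *mthl10*, -0.33 (adjusted p = 0.0319, limma), was not called without PCC replicate A, B or C or PC replicate A (-0.27 to -0.37, adjusted p = 0.0673 to 0.11), nor with edgeR (-0.23, adjusted p = 0.112), quantile normalization (-0.28, adjusted p = 0.0501) or eBayes without trend (-0.33, adjusted p = 0.0569). The change of *proPO59*, 0.75 (adjusted p = 0.0254, limma), was not called without PCC replicate A or C or PC replicate A or B (0.62 to 0.77, adjusted p = 0.0567 to 0.0871), nor after scaling to the same total (0.62, adjusted p = 0.0507). For *Hsp70Ba* the change was -0.65 (95% interval -2.08 to 0.78), for *Hsp68* -0.11 (-1.54 to 1.33) and for *Drs* 0.59 (-2.33 to 3.50), so the intervals leave room for differences of over 2-fold, in either direction for *Hsp68* and *Drs* and downward for *Hsp70Ba*. Over the whole heat shock list, 3 of 22 genes tested were higher in PCC and 5 were lower. The shares over all genes tested were 19.9% and 22.7%, so nothing particular to the list is read from these counts.

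In the members, PC replicate C differed from PC replicates A and B by transcript length. Its log2 difference from their mean had a Spearman correlation of -0.69 with the length of the longest annotated transcript. The 116 genes share the same libraries and are not independent. The correlation was not computed over other genes or for another library. Nothing particular to the members or to replicate C is therefore read from it. The difference had a median of 0.23 in the 58 members with the shorter transcripts and of -0.21 in the 58 with the longer ones. PC replicate C was the highest PC library in 50 members, which had a median length of 1349.5 bases, against 26 members highest in replicate A (2233.5 bases) and 40 in replicate B (2422.5 bases). *Tom7*, for example, was at 2424, 2217 and 4596 normalized counts in PC, and replicate C raised its PC mean most. Without PC replicate C, 106 of the 116 members were found again, and *Tom7*, *eff*, *CG7059* and *CG3321* were among the 10 that were not. With the length trend removed from every library, 110 were found again.

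**Figure D5:**
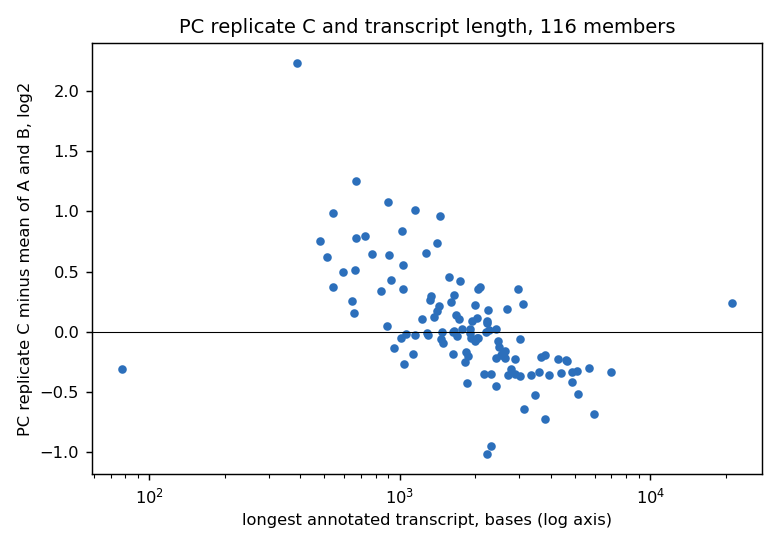
Difference of PC replicate C from the mean of PC replicates A and B (vertical axis, log2 of normalized count + 1) against the length of the longest annotated transcript (horizontal axis, bases, log scale) in the 116 members. Short transcripts lie mostly above 0 and long ones below, with a median of 0.23 in the shorter 58 members and -0.21 in the longer 58.

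Leaving out PC replicate C also added calls between PCC and PC. The genes then called by limma included *e*, with a log2 change of -0.41, *RpS19b* of 1.27, *Rac2* of -0.47, *Rab26* of -0.46, *disp* of -0.30, *Cbs* of 0.32 and *CG4250* of 0.35. With all libraries these were -0.19, 0.85, -0.32, -0.34, -0.16, 0.25 and 0.30 in the same order, and none was called. Over all genes tested, the calls rose as well, from 2305 higher and 2626 lower to 2859 and 2809. In the members they rose from 20 and 14 to 23 and 20, so added calls were not confined to them. Most of the added calls were higher in PCC over all genes and lower in PCC in the members, where they were few. Among the P libraries, replicate C was the highest in 53 members, A in 35 and B in 28. Without P replicate C the rule found 174 genes, of which 110 were among the 116, so this library set the upper edge of P for many genes.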

How the data were processed

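The authors aligned reads from stranded poly-A libraries to dm3 with TopHat2 2.0.9 and Bowtie2 2.1.0, discarded alignments with more than 3 mismatches, counted reads per gene by strand with HTSeq 0.5.3p9 and normalized them with DESeq. They deposited 1 table of normalized counts, a signal value that equals reads divided by a size factor. All values (100%, tolerance 1e-06) were whole multiples of 1 read, so reads were recovered.

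The rule for members was applied to condition means. PCC and PC were compared with limma 3.58.1 in R 4.3.3 (pseudocount 1, sum of at least 15, eBayes with trend, Benjamini-Hochberg). The replicates are separate pools of dissected brains, and p-values measure the spread between these pools. The test was run on simulated data first. Alternatives used edgeR 4.0.16 and DESeq2 1.42.0 on the recovered reads, other scalings, filters and pseudocounts, and each library left out. Removal of the transcript length trend was chosen after seeing the data.

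Members and gene lists were chosen with earlier results of these data known. Named are *chinmo*, *pros* and transgene-linked genes, the 12 members lowest in P relative to the others, the 5 with the highest P mean, the 10 at both ends of the PCC over PC change (5 each), members in a functional list and the 3 genes on each side of the ratio limit. Names, gene order, overlaps and transcript lengths came from RefSeq Release 6 and Ensembl BDGP6, a later build than the files, so no coordinates are given.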

Additional observations from a re-analysis of the deposited data

How the results depend on the processing

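The rule found 180 genes with a ratio limit of 0.85, and 78 to 148 under the other limits, minimum means, pseudocount and scalings, against 116. Without 1 library at a time it found 119 to 174. TMM lost 23 of the 116, among them *Sox102F*, *vn*, *RpS19b*, *GstS1*, *skap* and *eff*, and scaling to the same total lost 17, among them *Hsp27*, *Hsromega*, *Syx13*, *mthl4*, *Tom7* and *eff*. Leaving out 1 library lost 1 to 10 each, among them *y* without PC replicate A, *DnaJ-1* and *vn* without PC replicate B, *Syx13* and *Cyp6a13* without PCC replicate A, *Sox102F* and *mthl4* without P replicate A, *GstS1* and *skap* without P replicate B, and *Hsp27* without P replicate C. The median PCC over P log2 change of the members was 0.73 after scaling to the same total, against 0.81, and the median PC over P change was 0.69 with TMM, against 0.81. The median PCC over PC change of the members was -0.0845 after scaling to the same total and 0.38 after quantile normalization, against 0.04, and 38 members were then higher in PCC with quantile normalization, against 20. Over all genes tested, 1608 were higher and 2964 lower after scaling to the same total and 2945 higher and 2186 lower after quantile normalization, against 2305 and 2626. Leaving out 1 library gave 15 to 23 members higher and 11 to 20 lower, and medians of 0.0032 to 0.0853. Replicate letters were not taken to pair the libraries: the correlations of deviations with the same letter (A, B and C) were -0.415, -0.288 and -0.00274 between PCC and PC, -0.538, -0.124 and -0.465 between PCC and P, and 0.484, -0.0671 and 0.136 between PC and P. A replicate block gave 15 members higher and 11 lower with the same median of 0.04, and *Hsp27*, *mthl10* and *proPO59* were then not called. Depth limits genes with few reads in P, such as *Hsp70Ba*, *Drs*, *CG18417* and *y*, with 19, 40, 48 and 62 reads summed over the P libraries.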

Other observations

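Other genes of the same families took shapes that the rule leaves out. *Hsc70-2*, a heat shock cognate gene, was at 27.6, 17.7 and 13.9 normalized counts in PCC, 77.1, 12.6 and 13.1 in PC and 1397, 1389 and 1317 in P. That is the opposite direction to the heat shock members, which the rule chose for a low P. *mthl8*, of the methuselah family, was at 1469, 1572 and 1606 in PCC, and at 0 to 1.86 in PC and 0.832 to 1.05 in P. *GstD3*, a glutathione transferase gene, was at 3712, 4841 and 3051 in PCC, 213, 239 and 274 in PC and 187, 225 and 264 in P. *Hsp67Bc*, a small heat shock gene, was at 700, 386 and 745 in PCC, 4966, 4883 and 5217 in PC and 667, 760 and 537 in P, so its PCC and P libraries overlapped. *Hsp67Ba* was at 1322 to 1521 in PCC, 9999 to 12435 in PC and 3240 to 3310 in P, with P between the others. These genes were chosen after their values were seen, and none of these differences was tested.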
